A study of Mus musculus with 47 samples.

Results

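The genes described are 6 secreted phospholipases A2, Pla2g2a (the Mom1 candidate gene), Pla2g5, Pla2g2f, Pla2g10, Pla2g12a and Pla2g1b, taken by symbol from the 24062 genes of the deposited count table and followed across all 17 groups of libraries. Bulk RNA was sequenced from the intestine of mice 15 to 19 weeks old and from organoids. Tissue came as adenoma and uninvolved mucosa of mice with the Apc Min allele (Min mucosa) and as mucosa of wild-type mice, with 3 libraries in each of 13 groups. The B6xPWD mice are the F1 of C57BL/6 with PWD and so hold a PWD copy of every autosome, the C5 mice carry chromosome 5 of PWD on C57BL/6, the C5F1 mice are the cross of C57BL/6 with that strain, and the B6 mice are C57BL/6. PWD/Ph itself was sampled only as wild-type mucosa, with no Min group of this strain among the libraries analysed. The organoids are C5 and B6 cultures labelled as Apc Min, with 5-aza-cytidine (AZA, an inhibitor of DNA methylation) or as control, in 4 groups of 2 libraries, and the tissue they were grown from is not given in the sources used here.

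Secreted phospholipases A2 cleave the fatty acid at the middle position of membrane phospholipids and release a free fatty acid and a lysophospholipid. Free arachidonic acid feeds the cyclooxygenases and lipoxygenases that make prostaglandins and leukotrienes. Pla2g2a, the group IIA enzyme, is a bactericidal protein of Paneth cells in the small intestine and was put forward as the modifier Mom1, which lowers the number of intestinal tumours in Min mice. C57BL/6 is a strain known for a disrupted Pla2g2a.

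Pla2g2a lies at chr4:138831857-138835186 on the plus strand of GRCm38 (mm10), which is a C57BL/6 genome, and GENCODE M21 lists it as a polymorphic pseudogene. Exon 3 of 5 is printed from the GENCODE transcripts because the transcript models differ in it. The capitals mark 4 bases at chr4:138833013-138833016 that one transcript model leaves out.
Pla2g2a exon 3, chr4:138832891-138833036: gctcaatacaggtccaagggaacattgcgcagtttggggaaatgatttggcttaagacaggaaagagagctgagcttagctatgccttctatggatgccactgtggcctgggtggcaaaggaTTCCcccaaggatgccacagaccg
Read with the full exon, the frame from the start codon ran for 68 codons and met a stop in exon 4. With the 4 capitals left out it ran for 145 codons, and 55 codons precede them. Reads from PWD were counted on the same reference, and the PWD sequence of the gene was not analysed here.

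Pla2g2f and Pla2g5 are neighbours of Pla2g2a on chromosome 4. Pla2g2f, the group IIF enzyme known from mouse epidermis, lies at chr4:138750533-138757626, and Pla2g5, the group V enzyme, at chr4:138799244-138863482, both on the minus strand. The whole of Pla2g2a sits in a Pla2g5 intron on the opposite strand, and 0 of its exons overlap an exon of Pla2g5. As the strand setting of the counting is not given, reads from that intron could have been counted for Pla2g2a, which was not tested. Pla2g10, the group X enzyme, which acts well on phosphatidylcholine, lies at chr16:13715057-13730983 on the minus strand. An antisense transcript, Pla2g10os, overlaps it, and since the strand setting of the counting is not given its counts are uncertain. Pla2g12a, the group XIIA enzyme, lies at chr3:129878606-129895825, and Pla2g1b, the digestive enzyme of the pancreas, at chr5:115466262-115474722, both on the plus strand. Pla2g1b is the member on chromosome 5, the chromosome that C5 mice have from PWD.

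Gene counts per library were 2726505 to 20070696 in tissue and 4389898 to 8373764 in organoids. The ribosomal precursor Rn45s took 16.4 to 72.7% of them in tissue and 0.760 to 1.61% in organoids, and counts of libraries of the same group always differed beyond sampling noise. Levels are TMM-normalised CPM, counts scaled to the library total. A gene was called at an adjusted p under 0.05 in edgeR's quasi-likelihood test with Benjamini-Hochberg adjustment over all genes tested, 13657 in tissue and 13395 in organoids. The labels do not say that replicates come from different animals or cultures, and p-values therefore speak only of the spread among these libraries. All 9 enterocyte markers were present in tissue and organoids, and 6 smooth muscle markers summed to 39.6 to 946 CPM in adenoma, 113 to 2258 CPM in Min mucosa and at most 9.82 CPM in organoids. Of 7 colon markers 6 were in the table. They summed to 48.5 to 140 CPM in adenoma and 138 to 222 CPM in Min mucosa. In wild-type mucosa they summed to 215.5 to 351 CPM in PWD and 129 to 264 CPM in the other backgrounds. Of these markers, Hoxb13 was at 0 in every tissue group but C5 Min mucosa. Car1 was at 0 in C5 adenoma and in all mucosa groups outside B6xPWD, PWD included. Regional markers of the small intestine differed between libraries of the same group: Gata4, of the proximal part, ranged between 0.441 and 71.1 CPM in C5 wild-type mucosa and between 1.21 and 78.3 CPM in B6 wild-type mucosa. Of the 6 genes, 5 could be tested in tissue. Pla2g1b could not, with 2 counts in all, spread over 2 of 39 tissue libraries, below the 3 counts that a count of 0 allows (0.0119 CPM over all tissue), where counting error alone is covered. In organoids all 6 passed the filter.

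Pla2g2a was high in the backgrounds with a PWD chromosome 4, where the gene lies, and low in the others. PWD and B6xPWD mice have PWD copies of the other chromosomes as well, so the share of chromosome 4 cannot be told apart from theirs. Pla2g2a had 1541, 1058 and 1927 CPM in the PWD wild-type mucosa libraries, against 31.1, 27.5 and 17 CPM in B6 wild-type mucosa. The lowest PWD library stood far above the highest B6 library. The change was 5.87 ± 0.41 on the log2 scale (SE, adjusted p = 2.62e-12), or 58.6-fold (95% interval 32.9 to 104). In that comparison 18.7% of all genes tested were called. Over all tissue, the 12 libraries with a PWD copy of chromosome 4 had 760 to 2781 CPM (median 1216), and the 27 libraries with B6 copies alone had 11.4 to 211 CPM (median 31.1).

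**Figure D1:**
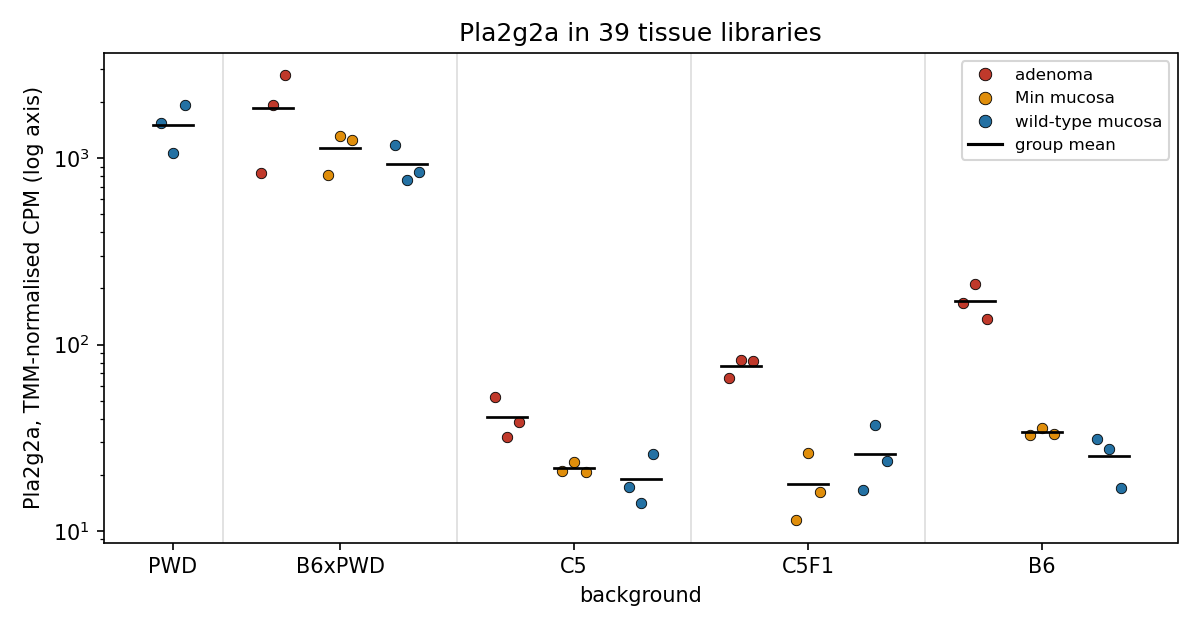
TMM-normalised CPM of Pla2g2a on a log axis in each of the 39 tissue libraries, by background and tissue, with black bars at group means. All PWD and B6xPWD libraries lie at 760 CPM or above and all C5, C5F1 and B6 libraries at 211 CPM or below.

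B6xPWD mice, with 1 PWD copy of the gene, also had a high level. Pla2g2a had 836, 1924 and 2781 CPM in B6xPWD adenoma, 815, 1318 and 1252 CPM in B6xPWD Min mucosa, and 1181, 760 and 843 CPM in B6xPWD wild-type mucosa. Each B6xPWD library exceeded every B6 library of its tissue. As the mean of the 3 tissues the change of B6xPWD against B6 was 4.55 ± 0.22 (adjusted p = 2.87e-16), in a comparison that called 34.8% of genes. By tissue it was 3.43 ± 0.36 in adenoma (16.9% of genes called), 5.06 ± 0.39 in Min mucosa (15.9%) and 5.17 ± 0.40 in wild-type mucosa (9.6%), and Pla2g2a was called in each. In every B6xPWD tissue the libraries lowest in Pla2g2a were also lowest in Gata4, at 1.37 CPM in adenoma 1 (32.7 and 22.4 CPM in the other two), 0.614 CPM in Min mucosa 1 (30.3 and 43.5 CPM) and 0.964 and 0.879 CPM in wild-type mucosa 2 and 3 (35.6 CPM in replicate 1). In wild-type mucosa of the parental strains the order was the reverse. Gata4 had 79.7, 132 and 25.2 CPM in PWD replicates 1 to 3. In B6 replicates 1 to 3 it had 1.21, 64.1 and 78.3 CPM. The remaining groups went either way. The part of gut region in the result was not tested. Against C5F1, the other F1, the change in Pla2g2a was 5.22 ± 0.23 (adjusted p = 1.35e-17; 24.3% of genes called).

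The Pla2g2a level of the F1 lay near the arithmetic middle of the parents. B6xPWD wild-type mucosa averaged 928 ± 223 CPM (SD, n = 3), and the midpoint of the parental means was 767 CPM, a ratio of 1.21. PWD averaged 1509 ± 435 CPM and B6 25.2 ± 7.31 CPM (n = 3 each). On the log2 scale the F1 stood 2.24 ± 0.28 above the midpoint of its parents (adjusted p = 6.36e-06; 7.67% of genes were called). The difference of PWD from B6xPWD was 0.70 ± 0.33 (95% interval 0.03 to 1.37, adjusted p = 0.167; 12.5% of genes called), which missed the threshold. PWD against C5 wild-type mucosa gave 6.29 ± 0.42 (adjusted p = 7.14e-13; 16.1% of genes called).

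No other tested member shared that pattern of levels. In PWD wild-type mucosa 3 of the other 4 fell against B6, in a comparison where 8.79% of all genes fell. Pla2g2f had 9.39, 5.34 and 7.90 CPM in PWD, against 18, 27.5 and 30.1 CPM in B6 (change -1.74 ± 0.39, adjusted p = 0.00165). Pla2g10 had 2.54, 1.15 and 4.26 CPM in PWD, against 10.1, 5.12 and 4.54 CPM in B6 (-1.49 ± 0.39, adjusted p = 0.00654). Pla2g5 had 6.86, 3.32 and 3.04 CPM in PWD, against 9.96, 12.6 and 14.7 CPM in B6 (-1.48 ± 0.49, adjusted p = 0.0318). For each of these genes all PWD libraries lay below all B6 libraries. For Pla2g10 the nearest values, 4.26 CPM in PWD and 4.54 CPM in B6, rest on 14 and 8 counts. The share of all genes separated in this way was not counted. Pla2g12a had 4.57, 6.35 and 2.13 CPM in PWD, against 5.88, 6.56 and 5.67 CPM in B6, which overlapped (-0.41 ± 0.39, adjusted p = 0.506). The Pla2g10 call was lost without B6 replicate 1 (adjusted p = 0.121), without PWD replicate 2 (0.0983) or with the compared groups fitted alone (0.0947). The Pla2g5 call was lost without B6 replicate 2 (0.0837), B6 replicate 3 (0.0527), PWD replicate 2 (0.15) or PWD replicate 3 (0.0901).

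Against B6 as the mean of 3 tissues, B6xPWD mice had less of these 3 genes and of Pla2g12a (4 of 5 members lower, against 16.1% of all genes). The changes were -0.93 ± 0.21 for Pla2g12a (adjusted p = 0.000831), -0.80 ± 0.20 for Pla2g10 (0.00226), -0.87 ± 0.28 for Pla2g5 (0.0161) and -0.56 ± 0.21 for Pla2g2f (0.0326). The last of these was lost when any of 7 single libraries was left out, namely B6 Min mucosa 2 or 3, B6 wild-type mucosa 2 or 3, B6xPWD Min mucosa 1, or B6xPWD wild-type mucosa 2 or 3, with changes of -0.55 to -0.48 then, and with the compared groups fitted alone (adjusted p = 0.091). In wild-type mucosa the mean of Pla2g5 in the F1 lay below both parents. It was 2.43 ± 1.17 CPM in B6xPWD, 4.40 ± 2.13 CPM in PWD and 12.4 ± 2.40 CPM in B6 (SD, n = 3 each). The B6xPWD libraries (1.10 to 3.30 CPM, on 5 to 15 counts each) overlapped those of PWD (3.04 to 6.86 CPM).

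**Figure D2:**
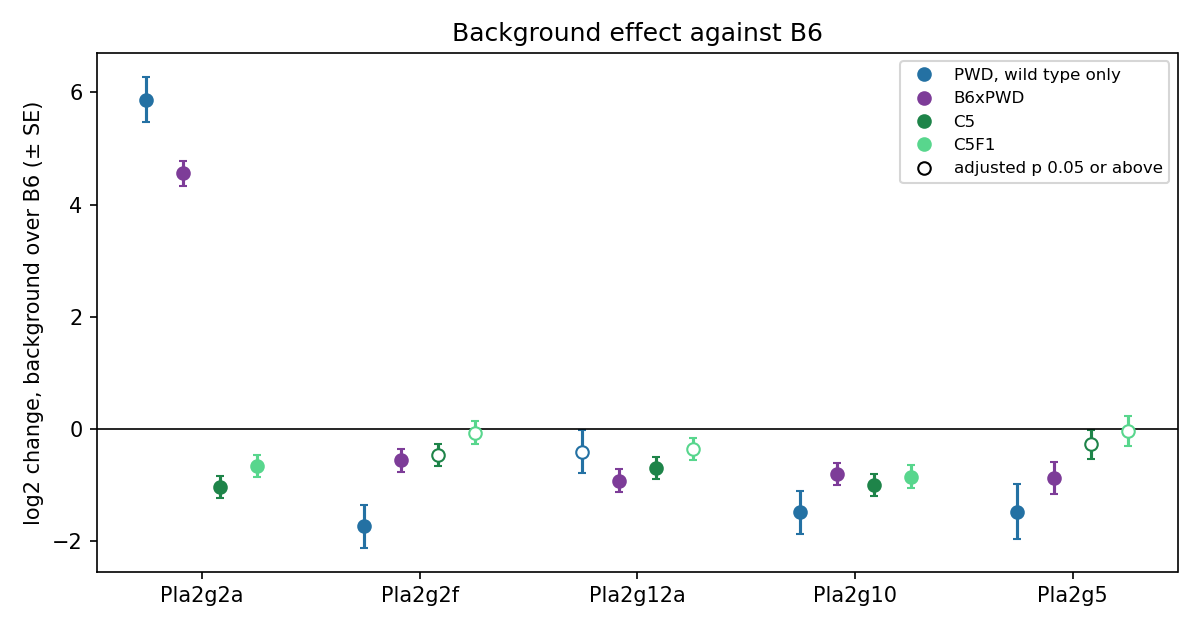
Log2 change of each background over B6 (± SE) for the 5 genes tested in tissue, as the mean of 3 tissues except for PWD, where only wild-type mucosa exists; open symbols missed an adjusted p of 0.05. Pla2g2a stands at 5.87 in PWD and 4.55 in B6xPWD, while the other filled symbols lie below 0.

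C5 mice, which differ from B6 in chromosome 5, had less Pla2g2a. Pla2g2a had 52.1, 31.7 and 38.6 CPM in C5 adenoma, against 166, 211 and 137 CPM in B6 adenoma, with no overlap. The change was -2.07 ± 0.34 (adjusted p = 0.00011; 17.8% of genes were called). Markers of several cell types separated the same adenomas: enterocyte markers summed to 5967 to 9571 CPM in C5, against 1684 to 4337 CPM in B6 (5 of 9 tested higher, 0 lower), Paneth markers to 2699 to 5805 CPM in C5, against 983 to 2435 CPM in B6 (7 of 12 higher, 0 lower), and distal ileum markers to 1526 to 1823 CPM in C5, against 426 to 594 CPM in B6 (2 of 5 higher, 0 lower). Sums of goblet, proximal intestine and colon markers were also higher in every C5 adenoma library than in any B6 one. Fibroblast markers went the other way, at 326 to 509 CPM in C5, against 546 to 731 CPM in B6. In that comparison 9.49% of all genes were higher, and the part of these cells or regions in the Pla2g2a result was not tested. In Min mucosa it had 21, 23.3 and 20.8 CPM in C5, against 32.7, 35.5 and 33.1 CPM in B6 (-0.63 ± 0.34, adjusted p = 0.366; 1.1% of genes called). In wild-type mucosa it had 17.1, 14.2 and 26.0 CPM in C5, against the B6 values above (-0.42 ± 0.35, adjusted p = 0.598; 1.47% of genes called). As the mean of 3 tissues C5 differed from B6 by -1.04 ± 0.20 (adjusted p = 0.000631; 18.6% of genes were called).

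In that mean Pla2g10 and Pla2g12a also fell, by 1.0 ± 0.20 (adjusted p = 0.000965) and 0.70 ± 0.20 (adjusted p = 0.0164), so that 3 of 5 tested members were lower in C5 and none was higher (8.36% of all genes were lower). Pla2g2f (-0.47 ± 0.20, adjusted p = 0.102) and Pla2g5 (-0.28 ± 0.27, adjusted p = 0.494) missed the threshold. Of 12 tested Paneth cell markers 4 were higher in C5 and 0 were lower, with a median change of 0.13, where 10.3% of all genes were higher.

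C5F1 mice, with 1 PWD chromosome 5, had 66.0, 82.3 and 81.2 CPM of Pla2g2a in adenoma, all below the B6 adenoma libraries and above the C5 ones. The change of C5F1 against B6 was -0.66 ± 0.20 as the mean of 3 tissues (adjusted p = 0.0275; 11.5% of genes were called). It was lost without any of 8 libraries: B6 adenoma 2, B6 wild-type mucosa 1 or 2, C5F1 adenoma 1, C5F1 Min mucosa 1 or 3, or C5F1 wild-type mucosa 1 or 3 (changes of -0.65 to -0.60). In adenoma alone it was -1.16 ± 0.33 (adjusted p = 0.0946; 0.483% of genes called), where DESeq2 (adjusted p = 0.0319) and a fit of the compared groups alone (0.00645) called it. In wild-type mucosa it was 0.02 ± 0.35 (adjusted p = 0.996; 0.022% of genes called), and C5F1 stood 0.23 ± 0.30 from the log2 midpoint of C5 and B6 (adjusted p = 0.93). Pla2g10 was also lower in C5F1 than in B6 as the mean of 3 tissues (-0.85 ± 0.20, adjusted p = 0.00665), while the other 3 members were not called.

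Adenoma was set against Min mucosa, the uninvolved tissue of mice of the same genotype, and held more Pla2g2a, Pla2g2f, Pla2g12a and Pla2g10. As the mean of 4 backgrounds 4 of 5 tested members rose and 0 fell, where 23.7% of all genes rose and 45.2% were called in either direction. In bulk tissue, fewer cells of a type and less RNA per cell cannot be told apart. The rises were 1.89 ± 0.17 for Pla2g12a (3.70-fold, adjusted p = 1.17e-10), 1.66 ± 0.18 for Pla2g2f (3.17-fold, 2.78e-09), 1.5 ± 0.17 for Pla2g2a (2.83-fold, 1.38e-08) and 0.66 ± 0.17 for Pla2g10 (1.59-fold, 0.00203). Pla2g5 was at 0.07 ± 0.23 (adjusted p = 0.826). The members' median was 1.5, and that of all genes tested 0.013.

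The Pla2g2a rise was called in B6 and C5F1. In B6 the 3 adenoma libraries given above (137 to 211 CPM) lay above the Min mucosa libraries (32.7 to 35.5 CPM), with a rise of 2.34 ± 0.35 (5.07-fold, adjusted p = 6.59e-06; 26.7% of genes called). In C5F1 it had 66.0 to 82.3 CPM in adenoma, against 11.4, 26.0 and 16.3 CPM in Min mucosa, with a rise of 2.03 ± 0.35 (adjusted p = 8.89e-05; 20.5% of genes called). In C5 all adenoma libraries lay above all Min mucosa libraries, but the change of 0.91 ± 0.34 missed the threshold (adjusted p = 0.206; 2.77% of genes called). Adenoma and Min mucosa libraries of the same number deviated together, and with the replicate number as a block the C5 change was 0.88 and was called (adjusted p = 0.03).

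In B6xPWD the Pla2g2a values of adenoma and Min mucosa overlapped, and the change of 0.71 ± 0.33 missed the threshold (adjusted p = 0.138; 16.4% of genes called). Without B6xPWD adenoma replicate 1, the lowest at 836 CPM, it was 1.05 (adjusted p = 0.0207). The difference of the adenoma change between B6xPWD and B6 was -1.63 ± 0.47 (adjusted p = 0.0871), in a test that called 0.63% of genes. With the replicate block it was -1.75 and called (adjusted p = 0.00474), as it was in DESeq2 (-1.62, adjusted p = 0.0387) and without B6xPWD adenoma replicate 3 (-2.06, adjusted p = 0.017). The same difference between C5 and B6 was -1.43 ± 0.48 (adjusted p = 0.227; 0.11% of genes called), and -1.45 with the block (adjusted p = 0.0194) or -1.44 with the compared groups fitted alone (0.0262). Between C5F1 and B6 it was -0.31 ± 0.48 (adjusted p = 1). For Pla2g12a the difference between B6xPWD and B6 was -0.75 ± 0.48 (adjusted p = 0.603), for Pla2g2f 0.32 ± 0.49 and for Pla2g10 0.28 ± 0.47, none of them called.

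**Figure D3:**
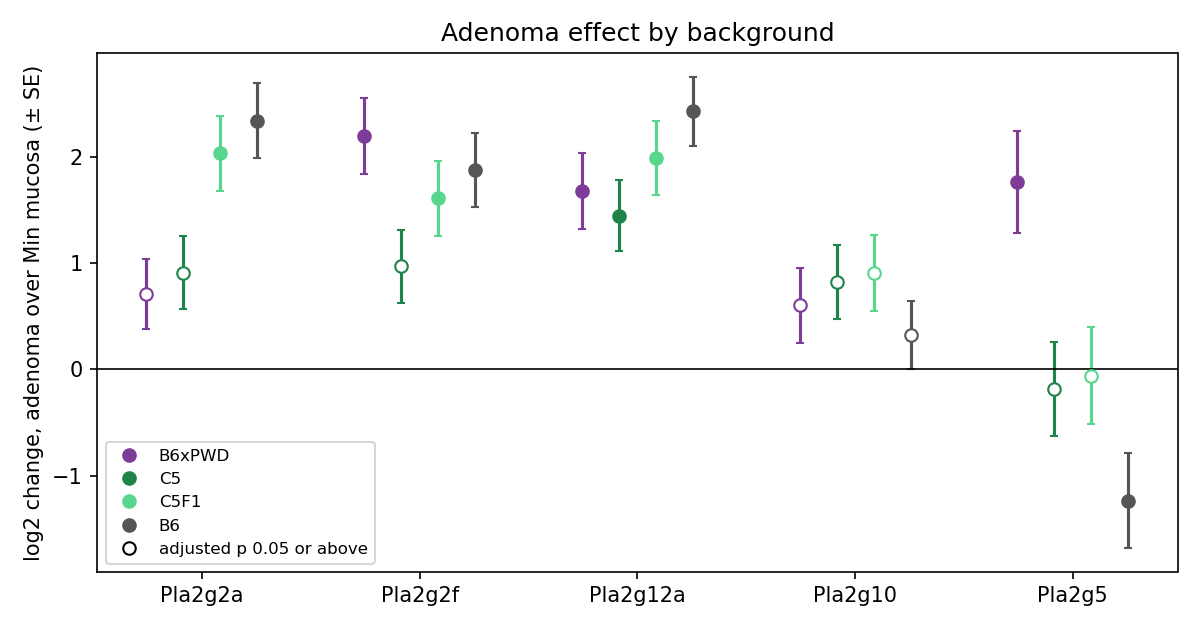
Log2 change of adenoma over Min mucosa (± SE) for 5 members in 4 backgrounds; filled symbols passed an adjusted p of 0.05. Pla2g12a is filled in all 4 backgrounds, Pla2g2a in C5F1 and B6, and Pla2g5 has filled symbols on both sides of 0.

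Markers of the cells that are known to make Pla2g2a moved the other way in adenoma. Of 13 Paneth markers 12 were tested. As the mean of 4 backgrounds 10 fell and 1 rose (median change -1.53), where 21.5% of all genes fell and 23.7% rose. Summed, the Paneth markers came to 983 to 5805 CPM over adenoma libraries, against 4202 to 11237 CPM over Min mucosa libraries. Defa5 was at 0 in both. In the parental comparison 10 of the 12 fell as well, where 8.79% of all genes fell and 9.96% rose. The Paneth sum was 2859 to 5675 CPM in PWD wild-type mucosa and 7560 to 9454 CPM in B6 wild-type mucosa. Of 9 enterocyte markers 6 fell in adenoma and 0 rose, and in PWD 2 rose and 0 fell, at a sum of 24119 to 42044 CPM in PWD and 6356 to 18814 CPM in B6 wild-type mucosa. Distal ileum markers summed to 426 to 594 CPM in B6 adenoma, against 2582 to 3763 CPM in B6 Min mucosa. In C5F1 they summed to 457 to 862 CPM in adenoma, against 1312 to 1633 CPM in Min mucosa. The proximal marker Gata4 had 1.07 to 25.4 CPM in B6 adenoma, against 0 to 0.875 CPM in B6 Min mucosa. In C5F1, Gata4 had 18 to 26.6 CPM in adenoma, against 38.0 to 58.9 CPM in Min mucosa. The part of either cell type or of gut region in the Pla2g2a results was not tested.

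Pla2g12a was the member called in adenoma of every background. Pla2g12a had 6.34, 15.1 and 22.4 CPM in B6xPWD adenoma, against 3.07, 4.28 and 6.55 CPM in B6xPWD Min mucosa, where 1 adenoma library overlapped (1.68 ± 0.36, adjusted p = 0.00135). It had 23.7, 13.7 and 10.8 CPM in C5 adenoma, against 5.81, 6.48 and 5.55 CPM in C5 Min mucosa libraries (1.45 ± 0.33, adjusted p = 0.00935). In C5F1 the values were 21.2, 28.2 and 25.9 CPM in adenoma, against 7.60, 7.55 and 4.56 CPM in Min mucosa (1.99 ± 0.35, adjusted p = 8.91e-05). Outside B6xPWD no adenoma library overlapped the Min mucosa of its background. In B6 they were 48.5, 47.1 and 26.9 CPM in adenoma, against 8.67, 8.22 and 5.77 CPM in Min mucosa (2.43 ± 0.33, adjusted p = 1.41e-06). The C5 call was lost without C5 adenoma replicate 1 (1.04, adjusted p = 0.19), C5 Min mucosa replicate 1 (adjusted p = 0.0559) or C5 Min mucosa replicate 3 (0.0793), and the B6xPWD call with the compared groups fitted alone (0.0712).

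Within adenoma, Pla2g12a was lower in B6xPWD and C5 than in B6. It differed from B6 adenoma by -1.52 ± 0.32 in B6xPWD (adjusted p = 0.00126; 16.9% of genes called) and by -1.34 ± 0.31 in C5 (adjusted p = 0.003; 17.8%). The B6xPWD call was lost with the compared groups fitted alone (adjusted p = 0.0553). Enterocyte markers summed to 4608 to 8042 CPM in B6xPWD adenoma and 5967 to 9571 CPM in C5 adenoma, against 1684 to 4337 CPM in B6 adenoma. Paneth markers summed to 3324 to 4089 CPM in B6xPWD adenoma and 2699 to 5805 CPM in C5 adenoma, against 983 to 2435 CPM in B6 adenoma. Fibroblast markers went the other way. They summed to 159 to 387 CPM in B6xPWD adenoma and 326 to 509 CPM in C5 adenoma, against 546 to 731 CPM in B6. None of these lists overlapped B6, and their part in the Pla2g12a result was not tested.

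Pla2g2f had 20.2, 65.3 and 102 CPM in B6xPWD adenoma, against 9.58, 16.8 and 14.7 CPM in B6xPWD Min mucosa (2.20 ± 0.36, adjusted p = 7.28e-05). It had 55.3, 60.3 and 63.7 CPM in C5F1 adenoma, against 16.0, 22.4 and 19.0 CPM in C5F1 Min mucosa (1.61 ± 0.35, adjusted p = 0.00123). No library overlapped in either background, nor in B6, with 66.9, 55.9 and 61.9 CPM in adenoma, against 12.9, 18.2 and 19.2 CPM in Min mucosa (1.88 ± 0.35, adjusted p = 0.000127). In C5 it had 53.8, 28.2 and 27.8 CPM in adenoma, against 20, 18.6 and 17.8 CPM in Min mucosa. That change of 0.97 ± 0.34 missed the threshold (adjusted p = 0.163) and was called with the replicate block (0.90, adjusted p = 0.0362).

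Pla2g2f and Pla2g12a moved together over the 39 tissue libraries (r = 0.865, a description over libraries that share groups). In B6xPWD adenoma every member tested in tissue had the same order of libraries, lowest in replicate 1 and highest in replicate 3. For Pla2g10, replicates 1 and 2 hardly differed (4.80 and 4.83 CPM, on 28 and 25 counts). The share of all genes with this order was not counted, so it is no trait of the members. The RefSeq promoter of Pla2g2f (250 bases before to 50 after the start, GRCm38.p6, minus strand) is shown because adenomas of Min mice have active Wnt signalling and this member rose in them.
Pla2g2f promoter, chr4:138757549-138757848: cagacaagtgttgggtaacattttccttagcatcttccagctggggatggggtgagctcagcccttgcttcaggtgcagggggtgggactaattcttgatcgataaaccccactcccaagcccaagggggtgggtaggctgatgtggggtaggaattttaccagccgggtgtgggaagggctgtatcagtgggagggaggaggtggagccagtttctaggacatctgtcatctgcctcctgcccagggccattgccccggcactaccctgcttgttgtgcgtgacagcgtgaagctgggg
It was searched for CTTTGA and CTTTGT, core letters of the TCF/LEF motif, on both strands. It held 0 of them, while 31.2% of 32851 RefSeq promoters of the same length held at least 1. The promoters of Pla2g12a and Pla2g10, which also rose, held 0 as well. That of Pla2g1b held 1, and the 2 entries of Pla2g5 held 0 and 1. The Pla2g2f promoter holds 5 CG pairs, against a median of 7. A RefSeq promoter entry was found for 5 of the 6 members; Pla2g2a is the other one.

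Pla2g10 had the smallest of the 4 rises and was called in no single background, with changes between 0.32 ± 0.32 in B6 and 0.90 ± 0.36 in C5F1. The C5F1 value (adjusted p = 0.0718) was called with the replicate block (0.94, adjusted p = 0.0189). Its means were 7.14 ± 2.02 CPM in adenoma, against 4.61 ± 2.32 CPM in Min mucosa (SD, n = 12 each). Pla2g10 had 5.23, 6.63 and 7.16 CPM in C5F1 adenoma, against 2.28, 4.05 and 3.20 CPM in C5F1 Min mucosa, and 6.65, 6.28 and 5.69 CPM in C5 adenoma, against 3.01, 4.40 and 3.03 CPM in C5 Min mucosa. In these backgrounds all adenoma libraries were above. The C5F1 Min mucosa value of 2.28 CPM rests on 3 counts, in a library where Rn45s took 72.7% of the counts. The share of all genes separated in this way was not counted. In B6 it had 10.5, 10.5 and 8.54 CPM in adenoma, against 9.30, 8.76 and 5.42 CPM in Min mucosa, which overlapped, and in B6xPWD 4.80, 4.83 and 8.96 CPM in adenoma, against 5.28, 2.14 and 4.45 CPM in Min mucosa, which overlapped too.

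Pla2g5 changed in opposite directions in 2 backgrounds. Pla2g5 had 7.89, 11.4 and 17.4 CPM in B6xPWD adenoma, against 4.30, 4.10 and 1.87 CPM in B6xPWD Min mucosa, with all adenoma libraries above (1.77 ± 0.48, adjusted p = 0.0104). In B6 it had 5.06, 2.47 and 6.4 CPM in adenoma, against 9.81, 8.76 and 14.7 CPM in Min mucosa, with all adenoma libraries below (-1.23 ± 0.45, adjusted p = 0.0399). The difference between the 2 changes was 3.0 ± 0.66 (adjusted p = 0.0342; 0.63% of genes called). It was lost without B6 adenoma 1 or 2, B6 Min mucosa 3 or any B6xPWD Min mucosa library (adjusted p 0.0557 to 0.114). In C5F1 (-0.06 ± 0.46) and C5 (-0.18 ± 0.44) it was not called. The B6xPWD and B6 values rest on 8 to 149 counts per library. The B6xPWD call was lost without B6xPWD adenoma replicate 3 (1.42, adjusted p = 0.0761) or Min mucosa replicate 3 (1.52, 0.0623). The B6 call was lost without B6 adenoma replicate 1 (adjusted p = 0.0923) or 2 (0.172), without B6 Min mucosa replicate 1 (0.0561) or 3 (0.151), and with totals that leave out Rn45s (0.0927).

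Against B6, Pla2g5 of B6xPWD was higher in adenoma (1.36 ± 0.46, adjusted p = 0.0369) and lower in Min mucosa (-1.64 ± 0.47, adjusted p = 0.0172) and in wild-type mucosa (-2.35 ± 0.53, adjusted p = 0.00478). The adenoma call was lost without B6 adenoma replicate 1 or 2 or B6xPWD adenoma replicate 2 or 3 (adjusted p 0.0691 to 0.162). The Min mucosa call was lost without B6 Min mucosa replicate 3 (0.0695) or B6xPWD Min mucosa replicate 3 (0.0912).

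**Figure D4:**
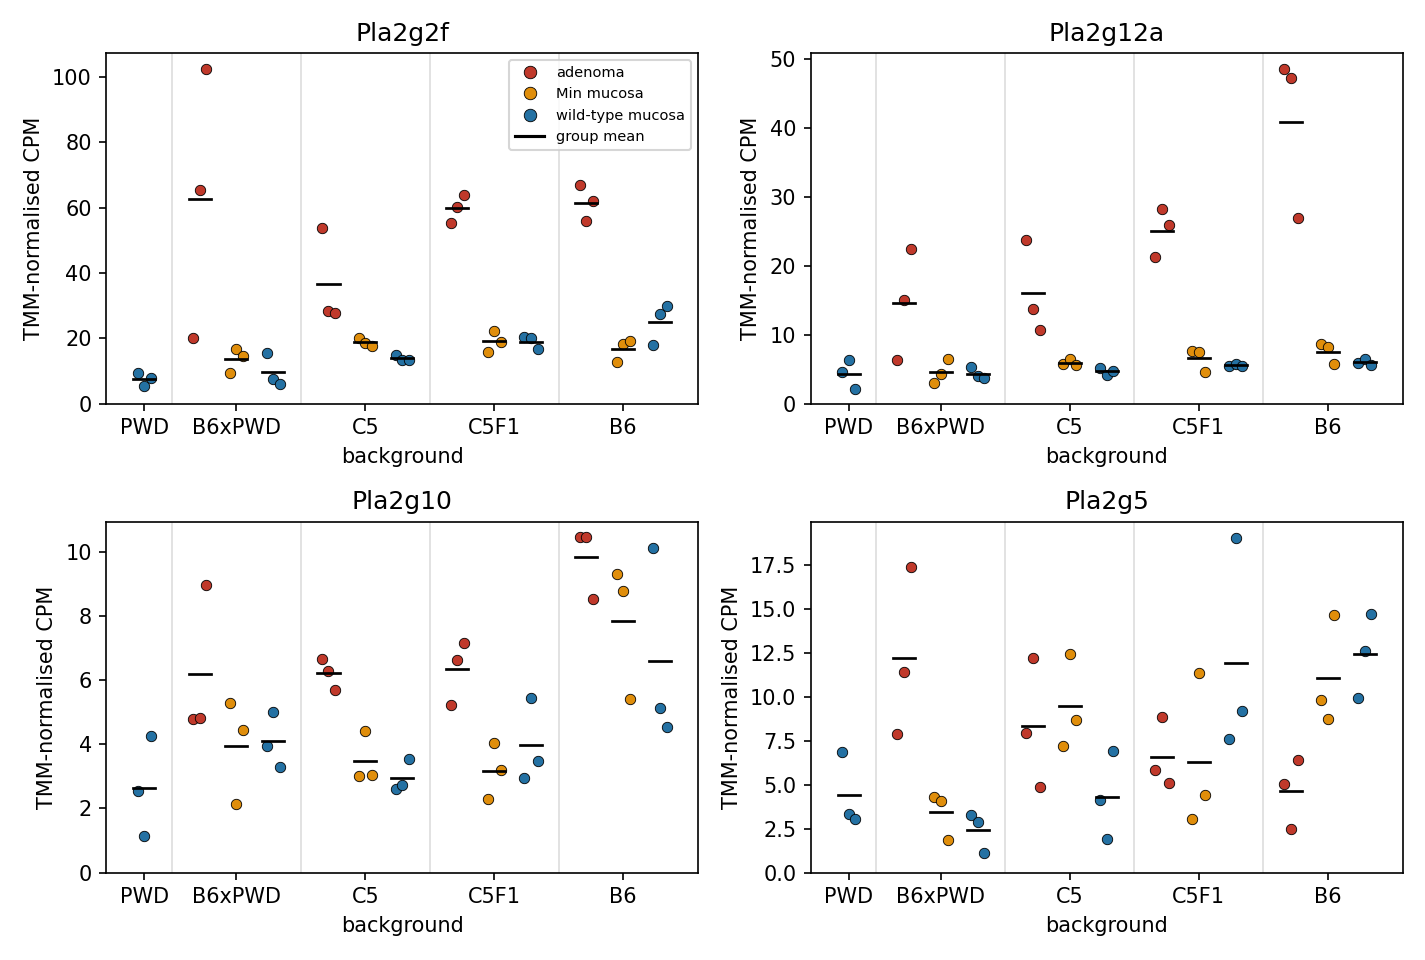
TMM-normalised CPM of Pla2g2f, Pla2g12a, Pla2g10 and Pla2g5 in each tissue library, by background and tissue, with bars at group means. For Pla2g12a and Pla2g2f the adenoma mean is the highest of each background that has adenoma, and Pla2g5 is higher in adenoma than in Min mucosa in B6xPWD and lower in B6.

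The comparison of Min mucosa with wild-type mucosa, which turns on the Min allele, called 0 of the 5 members as the mean of 4 backgrounds in edgeR, and 1 gene of all tested (0.00732%). At an unadjusted p under 0.05 it called 1014 genes and again 0 members, and DESeq2 called 13 genes and 0 members. Pla2g2a was at 0.09 ± 0.17 (95% interval -0.26 to 0.44, adjusted p = 0.954). It had 11.4 to 26.0 CPM in C5F1 Min mucosa, against 16.5, 36.9 and 23.8 CPM in C5F1 wild-type mucosa, and 32.7 to 35.5 CPM in B6 Min mucosa, against 17 to 31.1 CPM in B6 wild-type mucosa. For Pla2g12a the Min mucosa libraries averaged 6.18 ± 1.68 CPM and the wild-type libraries of the same 4 backgrounds 5.16 ± 0.837 CPM (SD, n = 12 each). The 4 other changes lay between 0.02 and 0.23.

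Per kilobase of exon, Pla2g2a was the highest of the 6 members in every tissue group, at 1626 CPM per kb in PWD wild-type mucosa and 27.2 CPM per kb in B6 wild-type mucosa. The next in B6 wild-type mucosa was Pla2g2f at 10.2, then Pla2g10 at 4.38, Pla2g5 at 4.32 and Pla2g12a at 1.64 CPM per kb. Pla2g10 and Pla2g5 do not differ beyond their spread in that order. In control organoids Pla2g12a led, at 7.50 in C5 and 7.60 in B6, where Pla2g2a was at 0.

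In organoids Pla2g2a was seen with AZA and undetected without it. Pla2g2a had 21 and 22 counts (3.04 and 5.02 CPM) in C5 AZA organoids and 0 counts in both C5 control organoids. It had 47 and 21 counts (8.05 and 3.63 CPM) in B6 AZA organoids and 0 counts in both B6 control organoids. All 4 treated libraries thus stood above all 4 controls. Pooled over both backgrounds, the AZA level was 46.2-fold above a floor of 3 counts over the control libraries (adjusted p = 0.0015, 28.5% of genes called). Against the floor of its own controls it was 18.8-fold in C5 (adjusted p = 0.0279, 14.6% of genes called) and 26.9-fold in B6 (adjusted p = 0.0193, 16.1%). These folds take the pooled AZA counts as observed, without their counting error or the spread between libraries. The p-values are from edgeR's test. The C5 call was lost without C5 control replicate 3 (adjusted p = 0.0563) or 4 (0.111) or with the compared groups alone (0.073), and the B6 call without B6 AZA replicate 1 (0.11) or B6 control replicate 1 (0.0807) or 2 (0.074). Both organoid backgrounds hold the B6 chromosome 4.

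Of 24062 genes 5233 had 0 counts in all 4 controls, and 86 of these had a count in all 4 AZA libraries. Of the 86, 5 had at least 21 counts in every AZA library, namely Mov10l1, Pet2, Pla2g2a, Slc9b1 and Tnfsf4, a list chosen after their values were seen. By summed count Pla2g2a ranked 11 among the genes at 0 in every control. Paneth markers rose beside it, 8 of 10 tested with 0 falling (median change 3.35), and their sum was 3871 to 7475 CPM in AZA organoids and 1358 to 1595 CPM in control organoids. Enterocyte markers rose in 9 of 9 cases. Of all genes tested 15% rose with AZA and 13.5% fell. The part of Paneth cells and enterocytes in the Pla2g2a result was not tested.

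Pla2g5 also rose with AZA. It had 28 and 46 counts in C5 AZA organoids, against 1 and 6 in C5 control organoids, and 19 and 4 counts in B6 AZA organoids, against 0 and 3 in B6 control organoids. Each AZA library exceeded the controls of its background. Pooled over backgrounds the 97 AZA and 10 control counts gave a ratio of 12.1 (95% counting interval 6.31 to 26.0), and the fitted change was 3.53 ± 1.18 (adjusted p = 0.036). That call was lost without B6 AZA replicate 1 (0.145), B6 control replicate 1 (0.0924), C5 AZA replicate 4 (0.158) or C5 control replicate 3 (0.0619). It was also lost with the number that AZA and control cultures share in their titles as a block (3.55, adjusted p = 0.0827). Pla2g10 (48 and 9 pooled counts, adjusted p = 0.201), Pla2g2f (150 and 106, adjusted p = 0.305), Pla2g12a (473 and 809, adjusted p = 0.239) and Pla2g1b (35 and 39, adjusted p = 0.324) were not called, with AZA counts given before control counts.

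Pla2g1b was seen mainly in C5 organoids. It had 7 and 32 counts in C5 control organoids, against 0 and 0 in B6 control organoids. Pooled, the C5 level was 12.1-fold above the same kind of floor, with the C5 counts taken as observed. With AZA it had 15 and 17 counts in C5, against 3 and 0 in B6, a ratio of 11.0 (95% counting interval 3.44 to 56.1). No B6 library reached a C5 library, but edgeR called neither difference (adjusted p = 0.753 in control organoids, where 0.209% of genes were called, and 0.931 with AZA, where 0.134% were called).

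**Figure D5:**
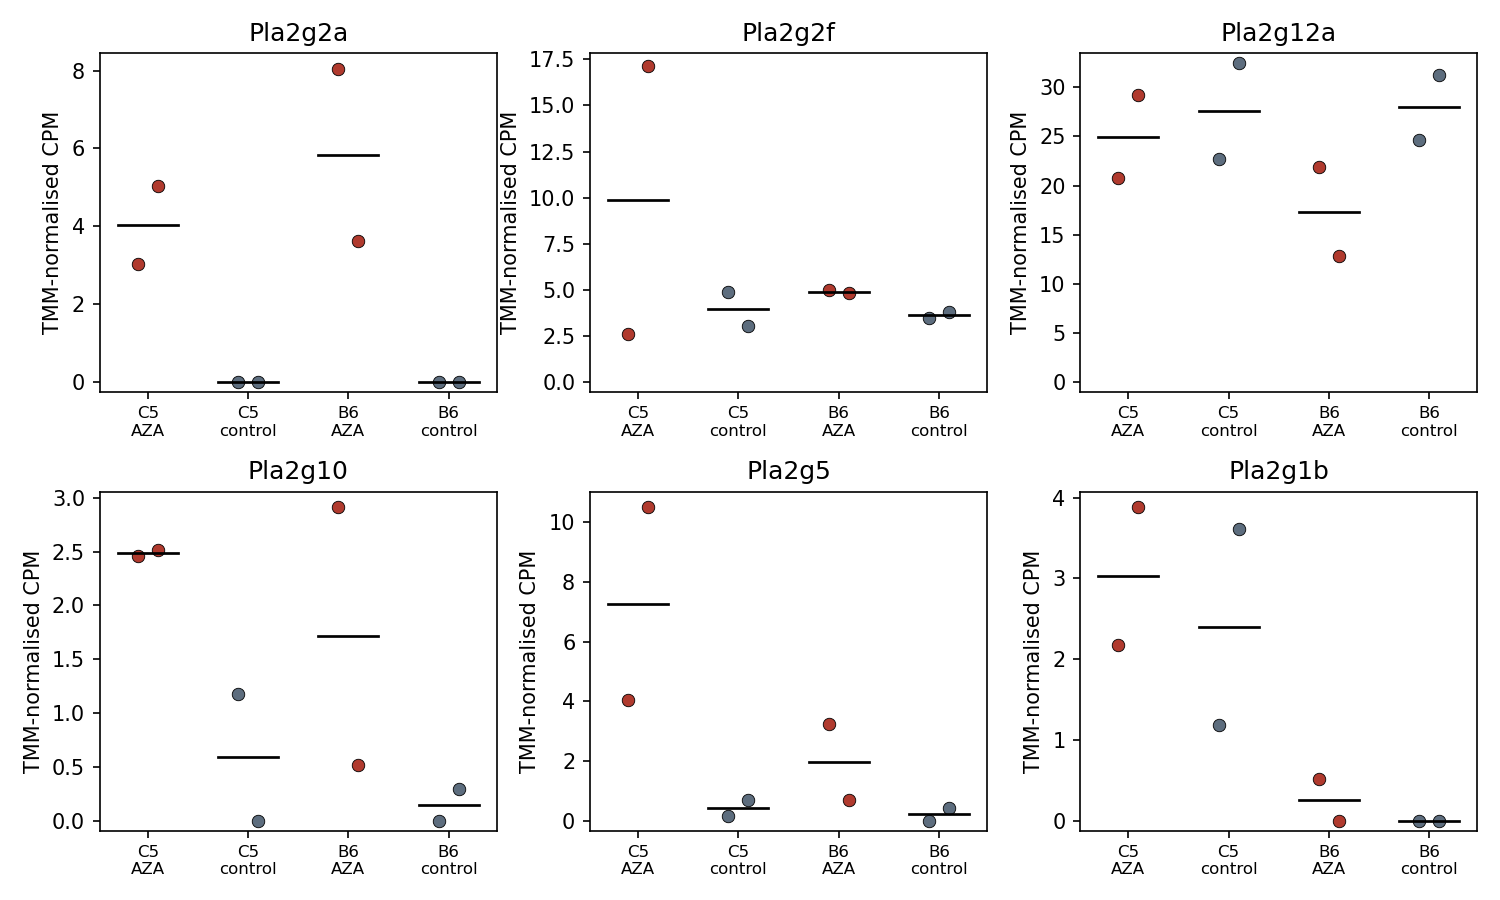
TMM-normalised CPM of the 6 members in each organoid library, AZA and control of C5 and then of B6, with bars at group means. Pla2g2a is at 0 in the 4 controls and at 3.04 to 8.05 CPM with AZA, and Pla2g1b is at 0 to 0.514 CPM in B6 organoids.

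Other genes of the pathway were counted in adenoma against Min mucosa as the mean of 4 backgrounds, where 45.2% of all genes were called. Of the other secreted phospholipases A2, 3 of 5 were tested, 0 rose and 1 fell. It was Pla2g12b, the catalytically inactive relative of Pla2g12a, at a mean of 21.2 ± 9.20 CPM over adenoma libraries and 40.5 ± 14.5 CPM over Min mucosa libraries (SD, n = 12 each; -0.98 ± 0.18, adjusted p = 4.35e-05). Among 11 tested cytosolic and other phospholipases A2, 2 rose and 2 fell, by at most 0.40 upward (Prdx6). The receptor Pla2r1, which binds secreted phospholipases, was not called.

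Eicosanoid enzymes split evenly, with 3 of 15 tested higher and 3 lower. Ptgs2, the inducible cyclooxygenase, averaged 30.9 ± 14.9 CPM in adenoma, against 3.07 ± 1.02 CPM in Min mucosa (3.25 ± 0.23, adjusted p = 7.69e-13). Hpgd, which inactivates prostaglandins, had a mean of 45.5 ± 29.2 CPM in adenoma, against 122 ± 52.8 CPM in Min mucosa (-1.5 ± 0.21, adjusted p = 8.19e-07). Of 8 genes that handle lysophospholipids 3 rose and 2 fell, led by Mboat1, an acyltransferase (2.32 ± 0.22, adjusted p = 2.49e-10). With AZA, Ptgs2 (4.24 ± 1.37, adjusted p = 0.0307), Hpgd (2.32 ± 0.34, adjusted p = 0.000122) and Pla2g12b (1.46 ± 0.20, adjusted p = 5.7e-05) rose.

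Of 9 neighbours of Pla2g2a on chromosome 4, 6 were tested. In PWD against B6 wild-type mucosa, where 18.7% of all genes were called, 0 rose and 1 fell, Ubxn10 (-1.90 ± 0.62, adjusted p = 0.0288). In B6xPWD against B6 as the mean of 3 tissues, where 34.8% were called, 2 rose, Camk2n1 and Mul1, by 0.37 ± 0.12 and 0.31 ± 0.11, and Ubxn10 fell (-0.82 ± 0.26, adjusted p = 0.0155).

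The genes most like Pla2g2a over the 39 tissue libraries, by Pearson correlation of log2 CPM among 13656 genes, were Ubash3a (r = 0.925), Hist1h4i (0.923), Rprl3 (0.911), Cyp4f37 (0.905) and Pcbd1 (0.889). Over the 13 group means they were Hist1h4i (0.963), Ube2z (0.960), Hist1h2ai (0.958), Reep1 (0.956) and Ubash3a (0.949). These are descriptions over libraries that share backgrounds. Ubash3a, which lies on chromosome 17, had up to 17.9 CPM in the PWD and B6xPWD libraries and at most 1.49 CPM in any C5, C5F1 or B6 library.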

How the data were processed

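The authors deposited whole-number counts of reads for each gene symbol, made with BWA, HTSeq and mm10 per the submitters' processing notes, which give no versions, roles, annotation or strand setting. Per the labels' protocols, ribosomal RNA was depleted with RiboMinus and single reads were sequenced; all backgrounds were counted on 1 reference. The 5 summary rows of the counter held 40.7 to 53.9% of the counts of tissue libraries and 46.4 to 63.5% of organoid libraries and were left out.

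The 6 genes, the marker and pathway lists and the tests were chosen with earlier results of these data known. The 39 tissue libraries and the 8 organoid libraries each had a fit of their own (edgeR 4.0.16, R 4.3.3): filterByExpr by group (minimum count 10, total 15), TMM, 1 mean per group, quasi-likelihood F-test, a prior count of 2 for log2 changes, and Benjamini-Hochberg adjustment over all genes. In all 37 comparisons were made, and the model was tested on simulated data. Named genes were the 6 members throughout, up to 3 called genes with the largest changes per list, and the 5 genes most like Pla2g2a. Levels per kb used the exon union of GENCODE M21. Where a group had 0 counts, folds are against 3 counts over the group, with the pooled counts of the other group taken as observed. Without molecular identifiers, counting intervals and floors hold for counting error alone.

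Libraries of the same number paired adenoma with Min mucosa: the correlation of their deviations from the group means was 0.107 to 0.455 and above 0.1 in 12 of 12 pairs. Alternatives were DESeq2 1.42.0, its size factors, totals without Rn45s, no filter, the compared groups alone, a replicate block, and leaving out each library.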

Additional observations from a re-analysis of the deposited data

Results flagged for a closer look

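The adenoma change of Pla2g5 differed between B6xPWD and B6 in an interaction test. The log2 difference was 3.0 ± 0.66 (adjusted p = 0.0342), with all 3 B6xPWD adenoma libraries above the B6xPWD Min mucosa and all 3 B6 adenoma libraries below the B6 Min mucosa. The call was lost on leaving out either of B6 adenoma replicates 1 and 2, replicate 3 of B6 Min mucosa or any B6xPWD Min mucosa replicate (2.74 to 3.20, adjusted p 0.0557 to 0.114), and with the compared groups fitted alone (3.08, adjusted p = 0.0845). Counts behind it were 8 to 149 per library. Groups of 3 or 2 libraries are too small for a test of single outlying libraries.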

How the results depend on the processing

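Of 92 results, 1510 recomputed values gave 1352 with the same direction and side of the threshold, 106 that lost a call, 17 that gained one and 35 that changed sign; each sign change was of a value past the threshold in neither setting. For Pla2g2a, the difference of the adenoma change between B6xPWD and B6 was -1.62 in DESeq2, -1.75 with the replicate block and -2.06 to -1.28 leaving out 1 library; Min against wild-type mucosa was -0.0030 to 0.18, in C5 -0.039 to 0.47. Leaving out 1 library, C5F1 against B6 wild-type mucosa ranged from -0.33 to 0.22, its difference from the parental midpoint from -0.12 to 0.43, and the adenoma change of C5F1 minus B6 from -0.51 to 0.071. C5F1 against B6 wild-type mucosa was also -0.0062 with DESeq2 size factors, -0.0058 in DESeq2, -0.0026 with the compared groups alone and -0.010 with totals without Rn45s. Pla2g5 in adenoma against Min mucosa ranged from -0.039 to 0.27 (mean), -0.39 to 0.73 (C5F1) and -0.56 to 0.070 (C5), and in C5F1 was 0.00018 with the replicate block and 0.23 with totals without Rn45s. Min against wild-type mucosa ranged from -0.015 to 0.35 for Pla2g5 and -0.053 to 0.15 for Pla2g10. The adenoma change of B6xPWD minus B6 ranged from -0.24 to 0.74 for Pla2g2f and -0.069 to 0.59 for Pla2g10, and Pla2g2f with AZA from -0.079 to 1.27. The causes were not tested. For wild-type mucosa and organoids the correlation of same-numbered libraries was -0.269 to 0.263. With 2 organoid libraries per group it rests on 1 value per background there. With that number as a block on the organoid cultures, Pla2g5 lost its call with AZA (3.55, adjusted p = 0.0827). Another block took the replicate number within each tissue over all backgrounds, for which no correlation was computed. With it Pla2g5 lost calls, among them those in PWD against B6 (0.0519) and in B6xPWD against B6 adenoma (0.0703). With 2 counts in all, Pla2g1b did not pass the filter in tissue and was not tested there.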
